A study of Emiliania huxleyi CCMP1516 with 36 samples.

Results

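NRT1, NII1 and DUR3 are 3 of the 37212 genes in a table of estimated RNA counts from the marine alga Emiliania huxleyi, a coccolithophore. They were taken by their row names, which stand for nitrate transport, nitrite reductase and urea transport. In a RefSeq gene table of the reference strain (assembly Emiliana huxleyi CCMP1516 main genome assembly v1.0) each symbol matched 1 protein-coding gene, with the locus tags EMIHUDRAFT_361445 for NRT1, EMIHUDRAFT_430293 for NII1 and EMIHUDRAFT_440751 for DUR3. All 3 were among the 26494 genes that passed the filter on low counts, which was applied over all groups together. DUR3 passed it by its counts in the groups where it was high.

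The study exposed bacteria-free batch cultures of strain CCMP2090 to 2-heptyl-4-quinolone (HHQ), an alkylquinolone that some marine bacteria release as a signal. Each culture held 2 L of natural seawater with f/2-Si nutrients, whose nitrogen source is nitrate, under 14 h of light and 10 h of dark. There were 9 groups of 4 biological replicate cultures, each sampled once as 400 ml of culture. The parent cultures, sampled at time 0, were untreated and served as inoculum. At 24 h and at 72 h there was a vehicle group with 0.002% DMSO and there were groups with 1, 10 or 100 ng/ml HHQ in the same 0.002% DMSO. Thus all HHQ groups and their vehicle groups carried DMSO, and the parent cultures did not. All values describe this 1 strain, although the labels' organism field names CCMP1516, the strain of the reference genome.

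Nitrate enters an algal cell through plasma membrane transporters, is reduced to nitrite in the cytosol, and is then reduced to ammonium in the plastid by nitrite reductase. Glutamine synthetase binds that ammonium into glutamine. Urea is another source of nitrogen in the sea, and in yeast and land plants DUR3 carries it into the cell by active transport. In many algae the genes for nitrate uptake and reduction, and those for urea uptake, are known to respond to which nitrogen source is present and to how much nitrogen the cell holds.

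Polyadenylated RNA was sequenced, and libraries totalled 5679128 to 42602884 estimated counts. Levels are given as CPM, counts divided by library size in the usual CPM unit, after TMM scaling, which sets library sizes by the bulk of the genes. CPM is a share of the RNA in a library, so fewer cells that transcribe a gene and less of its RNA per cell cannot be told apart. Some libraries stood apart from the others of their group in correlation over all genes: parent replicate 1, replicate 4 at 24 h in the vehicle, 10 and 100 ng/ml groups, and at 72 h replicates 1 and 2 from replicates 3 and 4 in these same 3 groups. At 1 ng/ml and 72 h replicate 4 was instead closer to replicates 1 and 2 (r = 0.933 and 0.928) than to replicate 3 (0.922). That replicate 3, the smallest library, had the lowest mean correlation of its group (0.912). The division was weak in the 72 h vehicle, where replicate 1 was nearly as close to replicate 3 (r = 0.953) as to replicate 2 (0.955). With 100 ng/ml at 24 h replicate 4 stood apart only weakly. Its mean correlation was 0.951 beside 0.956 for replicate 3, and replicate 1 was nearly as close to it (0.961) as to replicate 3 (0.964). At 1 ng/ml and 24 h replicate 1 had the lowest mean correlation of its group (0.932), near that of replicate 4 (0.935). Scaling also mattered: with library totals in place of TMM, the whole set of tested genes shifted against vehicle by a median log2 of 0.873 (24 h) and 1.17 (72 h) in the 100 ng/ml cultures, and of 0.262 and 0.129 in the 10 ng/ml cultures. With TMM these medians were 0.071, 0.037, −0.009 and −0.012. Unless said otherwise, a value after ± is the SD over 4 libraries for a level and the standard error (SE) for a log2 fold change. A gene was called changed at an adjusted p under 0.05 in edgeR's quasi-likelihood test, adjusted by Benjamini-Hochberg over all tested genes.

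NRT1, the nitrate transport gene, was present in all 36 libraries with 205 to 10034 counts. At 24 h the vehicle libraries held 33.2, 28.05, 26.6 and 43.6 CPM in replicates 1 to 4. With 1 ng/ml HHQ NRT1 stood at 33.3, 68.5, 49.6 and 48.8 CPM. The 10 ng/ml libraries held 99.7, 104, 71.1 and 63.2 CPM of it. The 1 ng/ml libraries overlapped the vehicle, whereas all 4 libraries at 10 ng/ml lay above every vehicle library. At 100 ng/ml the values were 110, 134, 99.5 and 58.3 CPM. These too lay above the vehicle libraries, and replicate 4 was the lowest of the group, as it was at 10 ng/ml.

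At 72 h the vehicle libraries held 53.7, 88.3, 35.01 and 35.3 CPM of NRT1. The 1 ng/ml libraries held 60.7, 72.4, 41.2 and 28.6 CPM. The 10 ng/ml libraries held 109, 104, 38.9 and 47.0 CPM. In these 3 groups replicates 1 and 2 were higher than replicates 3 and 4, and the groups overlapped. The same division was smaller per library total: in the vehicle group it was 39.0 and 43.4 against 30.4 and 31.5 CPM of the unscaled total. The 100 ng/ml libraries held 226, 169, 246 and 217 CPM of NRT1, above each of the other 32 libraries. Here replicates 1 and 2 were not the higher ones. The parent cultures held 72.1, 37.4, 28.7 and 41.6 CPM, with the highest value in replicate 1, the library that stood apart.

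**Figure D1:**
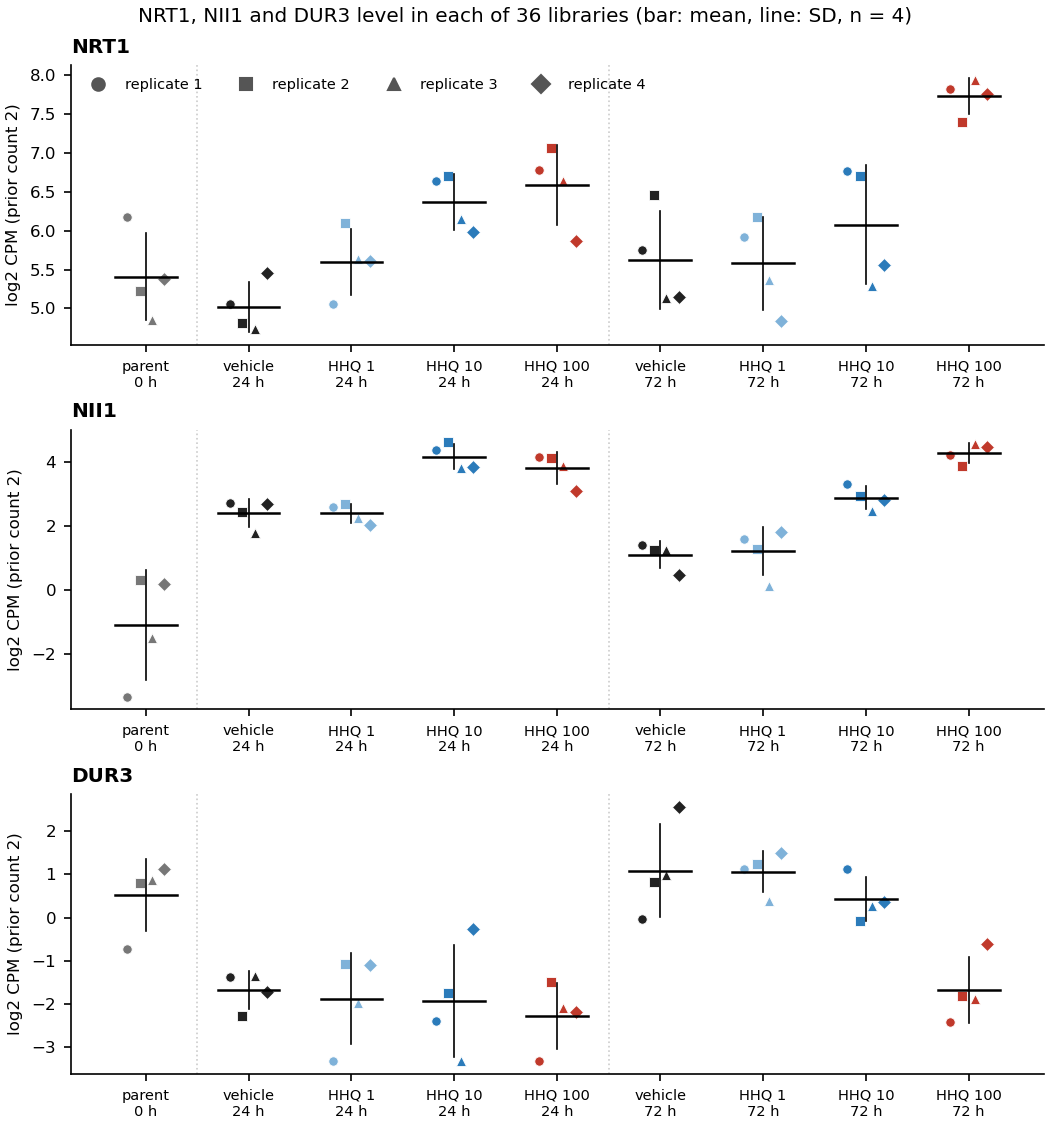
Levels of NRT1, NII1 and DUR3 in each of the 36 libraries, 1 panel per gene, as log2 CPM with a prior count of 2 on the vertical axis and the 9 groups on the horizontal axis. Points are libraries, bars are group means over 4 libraries and lines are SDs. NRT1 and NII1 are high in the 24 h cultures with 10 and 100 ng/ml HHQ and in the 72 h cultures with 100 ng/ml, while DUR3 is low in every 24 h group and with 100 ng/ml at 72 h.

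The comparisons with vehicle ask how the gene responded to each dose at each time. At 24 h NRT1 rose with 10 ng/ml HHQ from 32.9 ± 7.72 to 84.5 ± 20.4 CPM, 2.57-fold (log2 fold change 1.36 ± 0.36, adjusted p = 0.00892 by edgeR's quasi-likelihood test). In the 100 ng/ml cultures it reached 100.3 ± 31.5 CPM (1.61 ± 0.36, adjusted p = 0.00068 by edgeR). At 1 ng/ml the change was 0.61 ± 0.35 (adjusted p = 0.537) and was not called. The step from 10 to 100 ng/ml at 24 h, 0.25 ± 0.35, was smaller than its error (adjusted p = 0.66). At 72 h NRT1 was called with 100 ng/ml alone, at 214.5 ± 32.6 against 53.1 ± 25.1 CPM in the vehicle, 4.04-fold higher (2.02 ± 0.36, adjusted p = 4.41e-05 by edgeR). The dose step from 10 to 100 ng/ml was then 2.87-fold (1.52 ± 0.36, adjusted p = 0.00125). The 72 h changes with 1 and 10 ng/ml were −0.06 ± 0.35 and 0.49 ± 0.35 (adjusted p = 1 and 0.793).

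The 3 rises of NRT1 over vehicle were called in every alternative fit and without any single library. The size at 72 h depended on the libraries used: the log2 fold change with 100 ng/ml was 1.52 in replicates 1 and 2 and 2.78 in replicates 3 and 4, with adjusted p of 0.00536 and 2.02e-05. With library totals the changes at 100 ng/ml were 2.47 at 24 h and 3.29 at 72 h, each above the median shift of all genes.

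NII1 encodes nitrite reductase, which makes ammonium from nitrite. Its counts were lower, from 0 to 965 in a library. In the 24 h vehicle group it stood at 6.54, 5.33, 3.36 and 6.39 CPM in replicates 1 to 4. With 1 ng/ml HHQ it stood at 5.92, 6.33, 4.65 and 4.01 CPM, within the range of the vehicle libraries. The 10 ng/ml libraries held 20.5, 24.2, 14.0 and 14.1 CPM. All 4 of these libraries were above the vehicle, with replicates 1 and 2 the highest. At 100 ng/ml the values were 17.8, 17.4, 14.4 and 8.49 CPM, again above the vehicle and lowest in replicate 4.

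At 72 h the vehicle libraries held only 2.57, 2.28, 2.29 and 1.30 CPM of NII1, from 18 to 45 counts. The 1 ng/ml libraries held 2.93, 2.34, 1.01 and 3.43 CPM and overlapped the vehicle. The 10 ng/ml libraries held 9.85, 7.54, 5.39 and 6.92 CPM. None of these overlapped the vehicle. The 100 ng/ml libraries held 18.3, 14.6, 23.7 and 21.9 CPM. They lay above all 10 ng/ml libraries of the same time.

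NII1 rose at 24 h from 5.40 ± 1.47 CPM in the vehicle to 18.2 ± 5.02 CPM with 10 ng/ml, 3.38-fold (log2 fold change 1.76 ± 0.37, adjusted p = 0.00134 by edgeR). The 100 ng/ml cultures held 14.5 ± 4.28 CPM of it, 2.69-fold more than the vehicle (1.43 ± 0.37, adjusted p = 0.00276 by edgeR), and the difference from 10 ng/ml, −0.33 ± 0.36, was within its error (adjusted p = 0.557). At 72 h it was called at both doses, with 7.42 ± 1.85 CPM at 10 ng/ml and 19.6 ± 3.99 CPM at 100 ng/ml against 2.11 ± 0.557 CPM in the vehicle. The 10 ng/ml change was 3.49-fold (1.80 ± 0.39, adjusted p = 0.0143), and the 100 ng/ml change 3.21 ± 0.40 (adjusted p = 1.73e-07). The step from 10 to 100 ng/ml at 72 h was 2.65-fold (1.40 ± 0.37, adjusted p = 0.00345). With 1 ng/ml NII1 changed by −0.04 ± 0.38 at 24 h and 0.26 ± 0.41 at 72 h, and neither was called (adjusted p = 0.971 and 1).

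For NII1 the 10 ng/ml call at 72 h came where few genes were called: 0.947% of tested genes were called in either direction and 0.672% were called higher and 0.276% lower. The call was lost without vehicle replicate 4 (log2 fold change 1.64, adjusted p = 0.0619) and without 10 ng/ml replicate 1 (1.64, adjusted p = 0.0628), and with library totals (1.93, adjusted p = 0.0551). Within replicates 1 and 2 the change was 1.85 and within replicates 3 and 4 it was 1.78, with adjusted p of 0.193 and 0.44 in these smaller sets.

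DUR3, the urea transport gene, had few counts, 522 in all, so that single libraries held 0 to 80. In the 24 h vehicle group it stood at 0.289, 0.105, 0.293 and 0.204 CPM, which rest on 8, 2, 11 and 3 counts. The 1 ng/ml libraries at 24 h held 0, 4, 3 and 3 counts, the 10 ng/ml libraries 2, 3, 0 and 9, and the 100 ng/ml libraries 0, 6, 3 and 4. The groups overlapped, and the 3 libraries with 0 counts allow levels of up to 0.233, 0.0704 and 0.158 CPM of the unscaled totals (3 counts, counting error only). At this depth no difference of DUR3 between doses at 24 h was detectable: the log2 fold changes against vehicle were −0.18 ± 0.92, −0.23 ± 0.86 and −0.90 ± 0.87 with 1, 10 and 100 ng/ml (adjusted p = 0.939, 0.921 and 0.429 by edgeR). With 10 ng/ml the mean of 0.257 CPM was above the 0.223 CPM of the vehicle although the fitted change was below 0, and replicate 4 held 9 of the 14 counts, so no direction is given.

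At 72 h the vehicle libraries held 0.878, 1.67, 1.88 and 5.78 CPM of DUR3, the highest in replicate 4. The 1 ng/ml libraries held 2.09, 2.25, 1.21 and 2.73 CPM. The 10 ng/ml libraries held 2.09, 0.849, 1.11 and 1.18 CPM. These 3 groups overlapped. The 100 ng/ml libraries held 0.0865, 0.187, 0.172 and 0.557 CPM, from 3, 3, 7 and 12 counts. All 4 lay below every other library of that time.

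At 24 h DUR3 had stood at 0.127 ± 0.104 CPM with 100 ng/ml HHQ and at 0.223 ± 0.0885 CPM in the vehicle. At 72 h it was lower with 100 ng/ml than in the vehicle of that time, at 0.250 ± 0.209 against 2.55 ± 2.20 CPM (log2 fold change −3.37 ± 0.77, adjusted p = 0.000697 by edgeR). The size rested partly on single libraries: it was −2.60 without vehicle replicate 4 (adjusted p = 0.00735) and −4.06 without 100 ng/ml replicate 4 (adjusted p = 0.00061), and −2.33 with library totals (adjusted p = 0.0157). Against 10 ng/ml the 100 ng/ml cultures were 5.32-fold lower (−2.41 ± 0.77, adjusted p = 0.0135), a call lost without 10 ng/ml replicate 1 (−2.09, adjusted p = 0.0503), within replicates 3 and 4 (−1.68, adjusted p = 0.274) and with library totals (−1.37, adjusted p = 0.152). The 72 h changes with 1 and 10 ng/ml were −0.27 ± 0.68 and −0.96 ± 0.68 (adjusted p = 1 and 0.794).

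**Figure D2:**
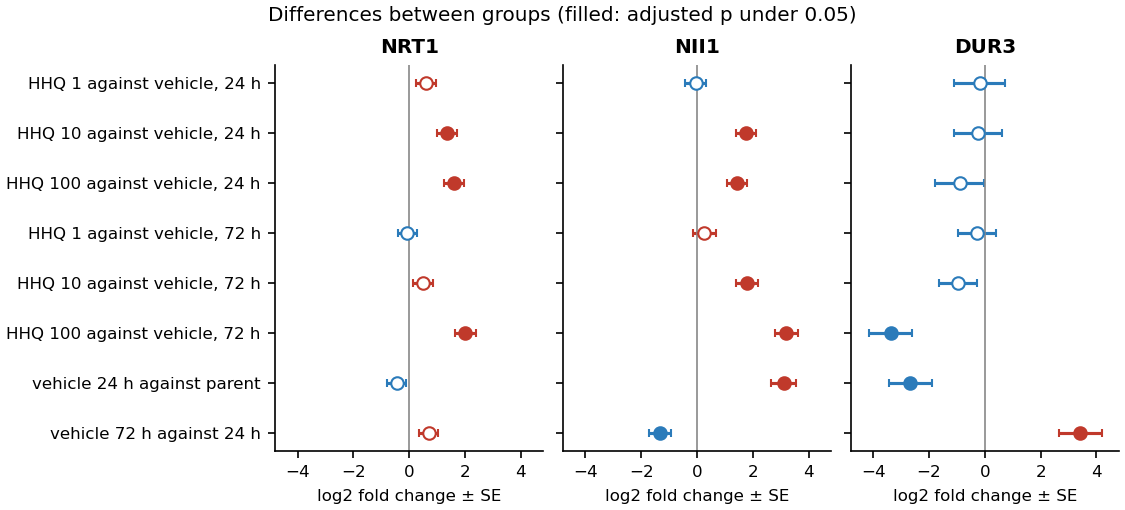
Log2 fold changes of the 3 genes in 8 comparisons: each HHQ dose against vehicle at 24 and 72 h, vehicle at 24 h against parent, and vehicle at 72 h against 24 h. The horizontal axis is the log2 fold change, lines are SEs, and filled points are called at an adjusted p under 0.05. At 72 h with 100 ng/ml NRT1 and NII1 lie at 2.02 and 3.21 and DUR3 at −3.37.

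Counted together, 2 of the 3 genes were called with 10 ng/ml at 24 h, both higher, beside 11.8% of all tested genes (7.39% higher and 4.37% lower). Both also had no overlap with the vehicle libraries, as did 17.5% of genes. At 24 h with 100 ng/ml the same genes, NRT1 and NII1, were called higher, beside 41.1% of all genes (21.6% higher and 19.5% lower) and 42.5% without overlap. At 72 h with 100 ng/ml all 3 were called and none overlapped, beside 46.2% called (22.6% higher and 23.6% lower) and 39.5% without overlap. Calls were thus common among all genes at 100 ng/ml. Scaled by library totals, the split of all calls moved to 11545 up and 1803 down at 24 h with 100 ng/ml, 14505 up and 1593 down at 72 h with that dose, and 1825 up and 286 down at 24 h with 10 ng/ml. With 10 ng/ml at 72 h only NII1 of the 3 was without overlap, beside 5.19% of genes. With 1 ng/ml none of the 3 was called at 24 or 72 h, nor was any of the 26494 genes by edgeR, where 2045 genes at 24 h and 494 at 72 h had an unadjusted p under 0.05 and DESeq2 called 12 and 8. All 3 overlapped the vehicle there, whereas 3.14% of genes at 24 h and 0.872% at 72 h did not. All comparisons of one time share the same 4 vehicle libraries, so they are not independent of each other.

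The response to 100 ng/ml, taken against the vehicle of the same time, differed between times for NII1. Between 24 and 72 h its level changed by 0.44 ± 0.36 with 100 ng/ml and by −1.34 ± 0.39 in the vehicle (adjusted p = 0.499 and 0.0315 by edgeR). Its log2 fold change over vehicle was larger at 72 h than at 24 h by 1.78 ± 0.53 (adjusted p = 0.0399 by edgeR), 1 of the 6.03% of genes for which this difference was called. The call was lost when any of 10 of the 16 libraries was left out (adjusted p from 0.022 to 0.0844 over all 16): vehicle replicates 1 and 4 and 100 ng/ml replicates 3 and 4 at 24 h, and any vehicle replicate and 100 ng/ml replicates 3 and 4 at 72 h. For NRT1 the difference was 0.41 ± 0.49 (adjusted p = 0.766), and for DUR3 −2.47 ± 1.2 (adjusted p = 0.277). At 10 ng/ml the differences were −0.87 ± 0.50 for NRT1, 0.04 ± 0.51 for NII1 and −0.73 ± 1.17 for DUR3, none called (adjusted p = 0.639, 1 and 0.974), beside 1.44% of all genes. At 1 ng/ml none of the 3 was called and no gene was by edgeR, where 786 had an unadjusted p under 0.05 and DESeq2 called 5.

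The dose steps give the same values from another side. From 1 to 10 ng/ml at 24 h NII1 was 3.47-fold higher (1.80 ± 0.38, adjusted p = 0.000916 by edgeR), the 1 member called beside 25.4% of genes, and the libraries did not overlap, as in 23.6% of genes. NRT1 stepped by 0.76 ± 0.35 (adjusted p = 0.109). From 1 to 10 ng/ml at 72 h no member was called, beside 0.653% of genes, although the NII1 libraries did not overlap (1.54 ± 0.40, adjusted p = 0.0657), as in 4.64% of genes. With replicate number as a block that NII1 step was called (1.54, adjusted p = 0.0259). From 10 to 100 ng/ml none of the 3 was called at 24 h, beside 18.7% of genes, and all overlapped, unlike 32.6% of genes. All 3 were called at 72 h, beside 39.5%, with no overlap in any of them, as in 33.9% of genes.

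Without HHQ, NII1 and DUR3 moved in opposite directions after the cultures were started. In the parent cultures NII1 stood at 0, 1.15, 0.255 and 1.04 CPM, from 0, 19, 5 and 17 counts. DUR3 stood at 0.509, 1.63, 1.73 and 2.08 CPM there, from 7, 27, 34 and 34 counts. For NII1 every vehicle library at 24 h was above these, and for DUR3 every one was below. Parent replicate 1 had the 0 for NII1, which allows up to 0.187 CPM of the unscaled total, and also the lowest DUR3 of the group.

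From the parent cultures to the 24 h vehicle, NII1 rose 8.64-fold, from 0.611 ± 0.569 to 5.40 ± 1.47 CPM (log2 fold change 3.11 ± 0.44, adjusted p = 1.82e-06 by edgeR). DUR3 fell 6.32-fold, from 1.49 ± 0.681 to 0.223 ± 0.0885 CPM (−2.66 ± 0.77, adjusted p = 0.0112). NRT1 changed by −0.45 ± 0.35 (adjusted p = 0.475). Thus 2 of 3 were called and without overlap, beside 18.9% of genes called (9.81% higher and 9.12% lower) and 21.5% without overlap. Both calls held without parent replicate 1, which left DUR3 at −2.94 (adjusted p = 0.00693). With only these 2 groups DUR3 did not pass the filter, so its call rests on the fit over all groups. The parent cultures also differed from the vehicle in DMSO and in age since inoculation, and these cannot be told apart.

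Between 24 and 72 h in the vehicle NII1 and DUR3 each moved opposite to their change from the parent. NII1 fell 2.53-fold, to 2.11 ± 0.557 CPM (−1.34 ± 0.39, adjusted p = 0.0315 by edgeR), and DUR3 rose 10.7-fold, to 2.55 ± 2.20 CPM (3.42 ± 0.77, adjusted p = 0.00492). NII1 in the 72 h vehicle still lay above every parent library, and these groups were not compared by a test. For both genes the 24 h and 72 h vehicle libraries did not overlap. NRT1 changed by 0.69 ± 0.35 (adjusted p = 0.254). These 2 of 3 calls stand beside 7.11% of genes called (3.92% higher and 3.19% lower) and 10.3% without overlap. DUR3 was among the tested genes only by its counts in groups where it was high, such as the 72 h vehicle. The NII1 call was lost in 5 of the 8 fits without 1 library (adjusted p 0.0525 to 0.0936): those without 24 h replicate 1 or without any 1 of the 72 h replicates. The DUR3 rise was 2.65 without 72 h replicate 4 (adjusted p = 0.0373) and 2.40 in replicates 1 and 2 alone (adjusted p = 0.0735).

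Time within each HHQ dose gave the following. With 1 ng/ml DUR3 rose 10.1-fold between 24 and 72 h (3.33 ± 0.86, adjusted p = 0.0175 by edgeR), while NII1 changed by −1.04 ± 0.40 (adjusted p = 0.145), beside 5.2% of genes called. Neither gene overlapped between the times, as in 8.94% of genes. With 10 ng/ml NII1 fell 2.45-fold (−1.29 ± 0.37, adjusted p = 0.0186) and DUR3 rose 6.45-fold (2.69 ± 0.83, adjusted p = 0.0289), beside 12.3% of genes called, and again neither overlapped, as in 16.9% of genes. Single libraries decided some of these. The DUR3 rise with 1 ng/ml was lost without 24 h replicate 3 (3.17, adjusted p = 0.0686), and without 72 h replicate 3, the smallest library, it was 3.49 (adjusted p = 0.0205). That with 10 ng/ml ranged from 2.00 without 24 h replicate 3 (adjusted p = 0.107) to 4.14 without 24 h replicate 4, and was also lost without replicate 1 or 2 at 24 h or replicate 1 at 72 h. The NII1 fall with 10 ng/ml was lost without 24 h replicate 2 or 72 h replicate 3 (−1.17 in both, adjusted p = 0.0653 and 0.0528).

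With 100 ng/ml, by contrast, none of the 3 was called between 24 and 72 h, beside 7.84% of genes. NII1 changed by 0.44 ± 0.36 and DUR3 by 0.95 ± 0.87 (adjusted p = 0.499 and 0.553). NRT1 was 1.10 ± 0.35 higher at 72 h, with no overlap between the libraries, as in 18.2% of genes, and fell just short of the threshold (adjusted p = 0.0503). It passed the threshold with DESeq2 and with each other scaling tried.

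Ordered by mean level, NRT1 ran from the 24 h vehicle through the parent, both 1 ng/ml groups, the 72 h vehicle, and the 10 ng/ml (72 h), 10 ng/ml (24 h) and 100 ng/ml (24 h) groups up to 100 ng/ml at 72 h. Only at the last of these steps did the libraries of neighbouring groups not overlap. NII1 ran from the parent through the 72 h vehicle, 1 ng/ml at 72 h, 1 ng/ml at 24 h, the 24 h vehicle, and the 10 ng/ml (72 h), 100 ng/ml (24 h) and 10 ng/ml (24 h) groups up to 100 ng/ml at 72 h. Its neighbours did not overlap between the parent and the 72 h vehicle and between 1 ng/ml at 72 h and at 24 h. DUR3 ran upward from 100 ng/ml at 24 h, the 24 h vehicle, 1 ng/ml at 24 h, 100 ng/ml (72 h) and 10 ng/ml (24 h), all at 0.127 to 0.257 CPM. Above a step without overlap came 10 ng/ml at 72 h, the parent, 1 ng/ml at 72 h and the 72 h vehicle, at 1.31 to 2.55 CPM. That step compares only the 2 neighbouring groups, and the lower and upper groups as sets did overlap. Parent replicate 1 (0.509 CPM) lay below replicate 4 of 10 ng/ml at 24 h (0.736 CPM) and of 100 ng/ml at 72 h (0.557 CPM).

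A ratio of 2 genes within a library does not depend on how libraries are scaled. Where a count is near 0, however, it depends on sequencing depth and on the number added to each count. Parent replicate 1, with 0 counts of NII1, gave −9.96 for NII1 to NRT1. With 0.5 added in place of 1, the difference of the 24 h vehicle from the parent changed by 0.404 (NII1 to DUR3) and 0.295 (NII1 to NRT1). The log2 ratio of NII1 to DUR3 counts, with 1 added to each, was −1.75 ± 1.21 in the parent, 4.35 ± 0.704 in the 24 h vehicle and 0.027 ± 1.51 in the 72 h vehicle. With 10 ng/ml at 72 h it was 2.49 ± 0.41 and with 100 ng/ml 6.32 ± 0.97. Each of these HHQ groups lay wholly above the 72 h vehicle. The log2 ratio of NII1 to NRT1 was −6.68 ± 2.30 in the parent, −2.61 ± 0.304 in the 24 h vehicle and −4.54 ± 0.562 in the 72 h vehicle, and at 72 h it was −3.20 ± 0.494 with 10 ng/ml and −3.46 ± 0.144 with 100 ng/ml. At 24 h it was −2.22 ± 0.112 with 10 ng/ml and −2.78 ± 0.129 with 100 ng/ml. Genes of different length give different counts, so a ratio is compared between groups and its sign has no meaning of its own.

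The groups were compared by exact permutation (two-sided), where 4 libraries against 4 cannot give a p below 0.0286. For NII1 to DUR3 that smallest p was reached in 5 of 8 comparisons: 10 ng/ml at 72 h, both times of 100 ng/ml, vehicle against parent, and vehicle at 72 h against 24 h. For NII1 to NRT1 it was reached in 4, namely both of these doses at 72 h, vehicle against parent, and vehicle at 72 h against 24 h. For NRT1 to DUR3 it was reached in 3, namely 100 ng/ml at each time and vehicle at 72 h against 24 h. Adjusted over the 24 tests all of these came to 0.0571, so none passed 0.05 after correction. Because p cannot fall below 0.0286, a ratio could have passed only if more of the 24 tests had reached that value. The lack of a call therefore does not show that the ratios were alike.

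**Figure D3:**
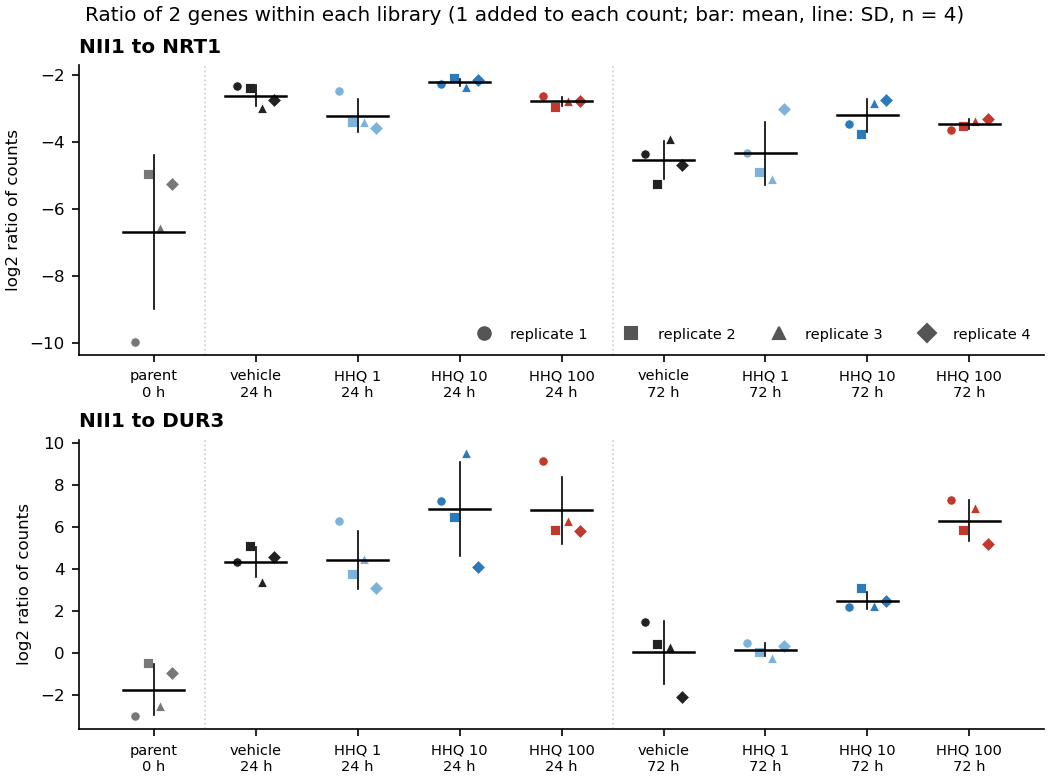
Log2 ratios of NII1 to NRT1 counts and of NII1 to DUR3 counts within each library (1 added to each count) on the vertical axes, by group. Points are libraries and bars are group means. The NII1 to DUR3 ratio is near 0.027 in the 72 h vehicle and at 6.32 with 100 ng/ml at 72 h, and parent replicate 1 is the lowest point for NII1 to NRT1.

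Over the 36 libraries, log2 CPM of NRT1 and NII1 correlated at r = 0.578, NRT1 and DUR3 at r = −0.324, and NII1 and DUR3 at r = −0.56. These describe 9 groups of libraries that share treatment and depth, and carry no test. Among 660 other tested genes with a symbol, the likeness of profile was measured in the same way. The genes most like NRT1 were Arf4-1 (r = 0.799) and Arf4-2 (r = 0.783), named for small GTPases of membrane traffic, and CPS1 (r = 0.749), named for carbamoyl phosphate synthetase. These Arf4 genes are similarly named copies whose reads may not be fully separated. The mean log2 CPM of CPS1 was 7.48 ± 0.165 in the 24 h vehicle, 8.58 ± 0.209 with 100 ng/ml at 24 h and 8.96 ± 0.196 with 100 ng/ml at 72 h, but the parent, at 8.54 ± 0.231, was also high.

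The genes most like NII1 were AROM (r = 0.907), in fungi a multifunctional enzyme of the shikimate pathway, and FADS1 (r = 0.88) and FADS2 (r = 0.873), in mammals fatty acid desaturases. FADS1 followed the order seen for NII1 closely, with mean log2 CPM of 4.92 ± 0.155 in the parent, 6.15 ± 0.103 and 5.12 ± 0.117 in the 24 h and 72 h vehicle, 7.40 ± 0.374 with 10 ng/ml at 24 h and 7.46 ± 0.277 with 100 ng/ml at 72 h. The genes most like DUR3 were ICL1 (r = 0.791), named for isocitrate lyase of the glyoxylate cycle, and PEPCK_1 (r = 0.694) and PEPCK_2 (r = 0.672), named for phosphoenolpyruvate carboxykinase of gluconeogenesis. The FADS pair and the PEPCK pair are also similarly named, and their reads too may not be fully separated. ICL1 stood at 10.4 ± 0.149 in the parent, 8.95 ± 0.331 in the 24 h vehicle, 10.2 ± 0.178 in the 72 h vehicle and 8.75 ± 0.424 with 100 ng/ml at 72 h. Among all tested genes, with or without a symbol, AROM ranked 9 for NII1 and ICL1 ranked 6 for DUR3, whereas Arf4-1 ranked 46 for NRT1. The other named genes ranked lower: FADS1 and FADS2 27 and 30 for NII1, Arf4-2 and CPS1 66 and 142 for NRT1, and PEPCK_1 and PEPCK_2 121 and 189 for DUR3.

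The table held 40 other genes with symbols of nitrogen uptake and assimilation, of which 31 passed the filter. At 24 h with 10 ng/ml 5 of the 31 were higher and 1 lower (16.1% and 3.23%, beside 7.39% and 4.37% of all genes). The urea cycle symbols gave 3 of the higher genes: CPS1 rose 1.87-fold, from 179 ± 20.8 to 335 ± 38.3 CPM (adjusted p = 0.00128 by edgeR), and ASL1 and ASL2, named for argininosuccinate lyase, rose 2.02-fold and 2.64-fold. The GLN symbols, which stand for glutamine synthetases in plants and green algae, went both ways. GLN4 fell 2.08-fold, from 1232 ± 273 to 593 ± 90.6 CPM (adjusted p = 0.00251), while GLN2 and GLN3, both near 1 CPM, rose 5.5-fold and 2.35-fold (adjusted p = 0.0147 and 0.0337). The fall of GLN4 was not called with library totals (log2 fold change −0.81, adjusted p = 0.136), the GLN3 rise was lost without vehicle replicate 1 or 2 or without 10 ng/ml replicate 1, 2 or 3, and the GLN2 rise was lost without vehicle replicate 1 or 3. With the replicate block 6 were higher and 2 lower, and without vehicle replicate 1 only 3 were higher.

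At 24 h with 100 ng/ml 6 of the 31 were higher and 12 lower (19.4% and 38.7%, beside 21.6% and 19.5% of all genes). With library totals 9 were higher and 4 lower, beside 11545 higher and 1803 lower of all 26494 genes. The median log2 fold change with TMM was −0.563 beside 0.071 over all genes. Without vehicle replicate 4 the lower genes numbered 7. Of the 13 tested AMT symbols, named for ammonium transporters, 6 were lower and 0 higher, with a median of −0.789. With library totals 3 of the 13 were lower and 0 higher and the median turned to 0.107, below the 0.873 of all genes. GLN4 fell 3.69-fold to 334 ± 113 CPM (adjusted p = 4.29e-07 by edgeR) and GLN3 rose 4.01-fold to 1.76 ± 0.408 CPM. CPS1, ASL1 and ASL2 rose 2.15-fold, 2.24-fold and 2.84-fold. ASS1, named for argininosuccinate synthetase, fell 1.91-fold from 424 ± 54.8 to 222 ± 27.7 CPM (adjusted p = 0.000253), a call that was lost with library totals (−0.10, adjusted p = 0.603).

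At 72 h with 100 ng/ml 11 were higher and 10 lower (35.5% and 32.3%, beside 22.6% and 23.6% of all genes), or 17 higher and 4 lower with library totals, under which 14505 of all 26494 genes were higher and 1593 lower. Replicates 1 and 2 alone gave 6 higher and 9 lower. GLN3 rose 10.9-fold, from 0.373 ± 0.219 to 4.12 ± 0.750 CPM (adjusted p = 5.28e-08 by edgeR). CPS1 rose 2.33-fold and ASL1 2.09-fold, and URE2 rose 2.94-fold, from 2.5 ± 0.914 to 7.32 ± 1.49 CPM (adjusted p = 3.3e-05). AMT13 fell 3.1-fold, from 353 ± 87.3 to 114 ± 29.2 CPM (adjusted p = 1.21e-07), and ASS1 fell 2.5-fold, and neither was called with library totals (−0.40 and −0.14, adjusted p = 0.209 and 0.406). Of the 13 AMT symbols 6 were lower and 1 higher, or 4 and 4 with library totals.

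With 10 ng/ml at 72 h, where NII1 was called, 0 of the 31 other nitrogen genes were called by edgeR, beside 0.947% of all genes. With the replicate block 2 were higher and 1 lower, and DESeq2 gave 2 higher and 1 lower. With 1 ng/ml 0 of 31 were called at 24 h and at 72 h. The difference between the 100 ng/ml responses at 72 h and 24 h was called for URE2 (2.69 ± 0.39, adjusted p = 3.43e-05 by edgeR), which was lower at 24 h and higher at 72 h, and for AMT13 (−1.44 ± 0.28, adjusted p = 0.00115). The URE2 fall at 24 h was not called with library totals (−0.30, adjusted p = 0.514).

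In the vehicle cultures at 24 h against the parent 4 of the 31 were higher and 5 lower (12.9% and 16.1%, beside 9.81% and 9.12% of all genes). GLN4 rose 2.94-fold, from 419 ± 58.7 CPM (adjusted p = 7.43e-06 by edgeR), and ASS1 rose 2.03-fold. CPS1 fell 2.1-fold, GLN2 7.45-fold, GLN3 3.37-fold and URE2 3.24-fold, the last from 10.8 ± 1.84 to 3.37 ± 0.844 CPM (adjusted p = 1.04e-05). These changes use the same 24 h vehicle libraries as the HHQ comparisons above and are not independent of them. Between 24 and 72 h in the vehicle 2 were higher and 3 lower (6.45% and 9.68%, beside 3.92% and 3.19% of all genes). With library totals the split over all genes was 1333 up and 2420 down for the vehicle at 24 h against the parent and 517 up and 1486 down for the vehicle over time. GLN5 rose 3.85-fold and AMT13 2.01-fold, and GLN4, NAR3 and NAR4 fell 1.98-fold, 1.8-fold and 1.63-fold (adjusted p = 0.00112, 0.00131, 0.00858, 0.0164 and 0.0146). The count of higher genes there moved from 2 to 6 without 24 h replicate 4 or with replicates 1 and 2 alone at 72 h, and AMT13 was not called with library totals (0.54, adjusted p = 0.241).

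**Figure D4:**
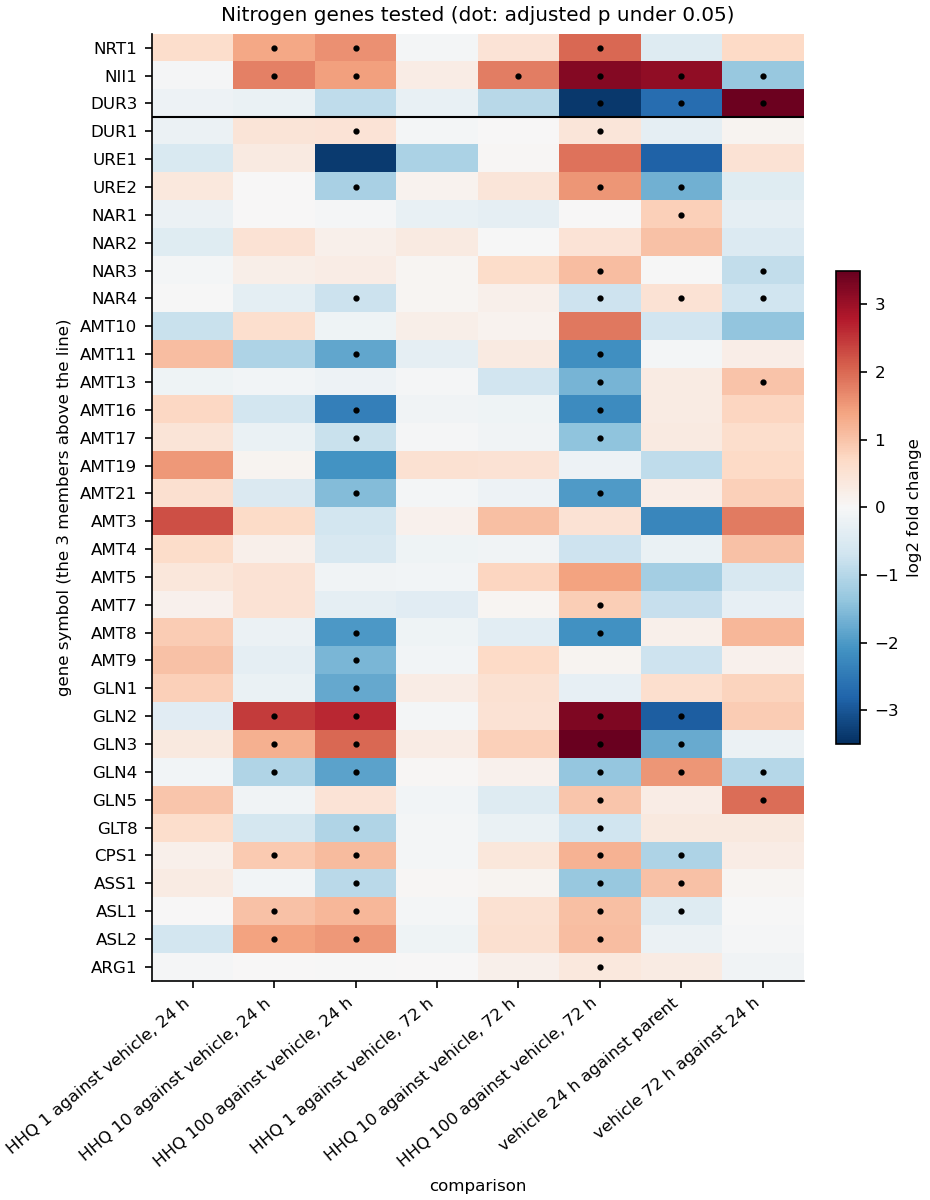
Heat map of log2 fold changes of the 34 tested nitrogen genes, the 3 described here and 31 others (rows), in 8 comparisons (columns), on a colour scale from −3.5 to 3.5, with a dot where the gene was called by edgeR at an adjusted p under 0.05. Dots are densest in both 100 ng/ml columns and absent from both 1 ng/ml columns.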

How the data were processed

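Per the labels' protocols, poly(A) RNA was captured and made into stranded libraries. Reads were trimmed with Trimmomatic 0.38 and quantified with Salmon 0.12.0, per the submitters' processing notes. Salmon's transcripts and settings were not given in the sources used here. Values deposited by the authors are estimated counts by gene without normalization. Since 45.8% of them were not whole, all were rounded. All 36 libraries entered 1 fit with a mean for each of 9 groups in edgeR 4.0.16 under R 4.3.3 (filterByExpr with a minimum count of 10, TMM, quasi-likelihood F tests, two-sided, Benjamini-Hochberg within each comparison). Each SE is the absolute log2 fold change over the square root of F. The biological coefficient of variation had a median of 0.287. Log2 CPM used a prior count of 2.

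The 3 genes, the list of nitrogen symbols and the tests were chosen with earlier results of these data known. Of that list, up to 6 called genes with the smallest p are named per comparison, and the 3 most correlated symbols per gene. What a symbol stands for is its usual meaning. Reads of similarly named genes, such as ASL1 and ASL2, may not be fully separated. Chi-square per gene between replicates was 5.61 to 211 in the 54 pairs within groups, so no library repeated another of its own group. Pairs across groups were not compared in this way. Groups share replicate numbers, which no label ties to a batch. Same-numbered libraries deviated together (every correlation over 0.1) in 6 comparisons: 10 ng/ml against vehicle at 24 and 72 h (0.174 to 0.5 and 0.201 to 0.438), 1 ng/ml against vehicle at 72 h (0.284 to 0.445), 100 against 10 ng/ml at both times (0.12 to 0.422 and 0.134 to 0.45) and 10 against 1 ng/ml at 72 h (0.214 to 0.422). DESeq2 1.42.0, other scalings, no filter, a replicate block, subsets of libraries and leaving out each library were tried. Gene levels are not compared with each other, since transcript lengths were not used here.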

Additional observations from a re-analysis of the deposited data

Results flagged for a closer look

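The response of NII1 to 100 ng/ml HHQ differed between the 2 times in a test of the difference itself: the log2 fold change over vehicle was 1.43 ± 0.37 at 24 h and 3.21 ± 0.40 at 72 h, a difference of 1.78 ± 0.53 (SE, 4 libraries per group, adjusted p = 0.0399 by edgeR's quasi-likelihood test). The NII1 level with 100 ng/ml was 14.5 ± 4.28 CPM at 24 h and 19.6 ± 3.99 CPM at 72 h, and in the vehicle it was 5.40 ± 1.47 and 2.11 ± 0.557 CPM. Without replicate 4 of every 24 h group, the difference was 1.5 (adjusted p = 0.131). These replicates stood apart in correlation in the vehicle and 10 ng/ml groups, and weakly in the 100 ng/ml group. Leaving out only the vehicle or only the 100 ng/ml replicate 4 at 24 h gave 1.69 and 1.68 (adjusted p = 0.0624 and 0.0646 by edgeR). Within replicates 1 and 2 at 72 h the difference was 1.40 (adjusted p = 0.252).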

How the results depend on the processing

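Calls that held in every fit that gave a value, leaving out any 1 library included, were those of NRT1 and NII1 with 10 and 100 ng/ml at 24 h, of all 3 genes with 100 ng/ml at 72 h, of NII1 and DUR3 in the 24 h vehicle against the parent, and of NII1 from 1 to 10 ng/ml at 24 h. DUR3 did not pass the filter, and so had no value, with only the groups compared in the comparisons among 24 h groups and of the 24 h vehicle with the parent, and over time at 100 ng/ml. Values below are log2 fold changes, and the cause of each change was not tested. In the sets of fewer libraries the tests also had fewer samples. DUR3 is limited by depth, with 10 to 24 counts over the 4 libraries of each 24 h group. The ratio differences kept their direction with 0.5 in place of 1 added, and moved by up to 0.404. No ratio was called with either number.

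With library totals the sign turned for DUR3 with 10 ng/ml at 24 h (0.02), NRT1 with 1 ng/ml at 72 h (0.01), the 72 h minus 24 h difference of DUR3 at 1 ng/ml (0.26) and of NII1 at 10 ng/ml (−0.13), NII1 from 10 to 100 ng/ml at 24 h (0.21) and DUR3 from 1 to 10 ng/ml at 24 h (0.67). Calls were lost for NII1 with 10 ng/ml at 72 h (1.93), the NII1 difference at 100 ng/ml (2.14), DUR3 from 10 to 100 ng/ml at 72 h (−1.37) and DUR3 over time at 10 ng/ml (2.18). Calls were gained for NRT1 from 10 to 100 (0.78) and from 1 to 10 ng/ml (1.5) at 24 h and over time at 10 (−0.84) and 100 ng/ml (1.05).

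NRT1 over time at 1 ng/ml, 0.02 in the report, turned to −0.05 with DESeq2 size factors and with DESeq2, −0.02 without the filter and with only the groups compared, −0.04 with the replicate block and −0.55 in replicates 3 and 4 at 72 h. NRT1 over time at 100 ng/ml passed the threshold with DESeq2 size factors, DESeq2 and only the groups compared (1.17), without the filter (1.13), with the block (1.21), in replicates 1 and 2 (1.02) and in replicates 3 and 4 at 72 h (1.22). The replicate block also turned the DUR3 difference at 1 ng/ml (0.39) and gained NII1 from 1 to 10 ng/ml at 72 h (1.54), and it changed no other call of the 3 genes. With only the groups compared NRT1 from 1 to 10 ng/ml at 24 h was gained (0.78) and DUR3 over time at 10 ng/ml lost (2.70). DESeq2 turned DUR3 from 1 to 10 ng/ml at 24 h (0.04) and gained NII1 from 1 to 10 ng/ml at 72 h (1.56) and NII1 over time at 1 ng/ml (−1.11).

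With replicates 1 to 3 at 24 h the sign turned for NII1 with 1 ng/ml at 24 h (0.15), the differences of DUR3 at 1 (0.25) and 10 ng/ml (0.78) and of NII1 at 10 ng/ml (−0.14), and DUR3 from 10 to 100 ng/ml (0.80), and the NII1 difference at 100 ng/ml was lost (1.5). With replicates 1 and 2 at 72 h it turned for DUR3 with 1 (0.76) and 10 ng/ml (0.20), its differences at 1 (0.94) and 10 ng/ml (0.41), the NRT1 difference at 100 ng/ml (−0.07) and NRT1 over time at 10 ng/ml (0.32). Calls were lost for NII1 with 10 ng/ml (1.85), NII1 (−1.17) and DUR3 (2.40) over time in the vehicle, the NII1 difference at 100 ng/ml (1.40), NRT1 (0.93) and NII1 (0.96) from 10 to 100 ng/ml, DUR3 over time at 1 ng/ml (3.35) and NII1 over time at 10 ng/ml (−1.08), and NRT1 over time in the vehicle was gained (1.09). With replicates 3 and 4 calls were lost for NII1 with 10 ng/ml (1.78), NII1 over time in the vehicle (−1.65), DUR3 from 10 to 100 ng/ml (−1.68) and DUR3 over time at 10 ng/ml (2.48).

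Some comparisons called with all libraries lost the call in fits without 1 library. The ranges below include the fits without a call. NII1 ran from 1.64 to 1.93 with 10 ng/ml at 72 h and from −1.55 to −1.17 over time in the vehicle. The NII1 difference at 100 ng/ml ran from 1.61 to 2.03, and DUR3 from 10 to 100 ng/ml at 72 h from −3.11 to −2.08. Over time DUR3 ran from 2.85 to 3.73 at 1 ng/ml and from 2.00 to 4.14 at 10 ng/ml. NII1 over time at 10 ng/ml ran from −1.46 to −1.17. Uncalled values that changed sign ran at 24 h from −0.21 to 0.08 for NII1 and −0.59 to 0.24 for DUR3 with 1 ng/ml and −1.68 to 0.42 for DUR3 with 10 ng/ml, and at 72 h with 1 ng/ml from −0.29 to 0.30 for NRT1 and −0.55 to 0.50 for DUR3. The differences between times ran from −0.51 to 0.67 for DUR3 at 1 ng/ml, and at 10 ng/ml −0.12 to 0.22 for NII1 and −1.37 to 0.72 for DUR3. DUR3 at 24 h ran from −1.36 to 0.78 from 10 to 100 ng/ml and −1.5 to 0.6 from 1 to 10 ng/ml, and NRT1 over time from −0.20 to 0.22 at 1 ng/ml and −0.42 to 0.03 at 10 ng/ml.

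Counts over the 31 other nitrogen genes moved too. With library totals the lower genes went from 1 to 0 (10 ng/ml) and from 12 to 4 (100 ng/ml) at 24 h and from 10 to 4 (100 ng/ml) at 72 h, the higher ones from 11 to 17 (100 ng/ml, 72 h), from 4 to 2 in the 24 h vehicle against the parent and from 2 to 1 in the vehicle over time. Over time the vehicle gave 7 higher with the replicate block and 1 higher and 0 lower with only its own groups, in place of 2 and 3. With only the groups compared 3 in place of 5 were higher with 10 ng/ml at 24 h. Over all genes, the number called ranged across fits from 17 to 699 around 251 for 10 ng/ml at 72 h, from 2111 to 5268 around 3114 for it at 24 h, from 460 to 5191 around 1884 for the vehicle over time, and from 1101 to 3173 around 1597 for the difference at 100 ng/ml. For the difference at 10 ng/ml it ranged from 149 to 769 around 381. For the dose steps it ranged from 3154 to 9070 around 4947 (10 to 100 ng/ml, 24 h), from 6082 to 10350 around 6735 (1 to 10 ng/ml, 24 h) and from 6 to 439 around 173 (1 to 10 ng/ml, 72 h). Over time it ranged from 356 to 2868 around 1378 (1 ng/ml), from 1961 to 7130 around 3268 (10 ng/ml) and from 1024 to 4992 around 2076 (100 ng/ml).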
